A study of Mus musculus with 17 samples.

Results

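Axon guidance ligands and receptors were examined in the spinal cord of mice with targeted EAE and of naïve mice. They were taken as the 71 genes, of 18194 measured on the array, whose symbols name a semaphorin of class 3 to 7, a plexin, a neuropilin, an ephrin, an Eph receptor, a Slit, a Robo, a netrin or netrin-G protein, Dcc or an Unc5 receptor, Nogo (Rtn4) or the Nogo receptor (Rtn4r). The rule is on symbols and uses no measured value, although these families were picked with earlier results of the data known. Of the Unc5 receptors it names Unc5a, Unc5c and Unc5d and leaves out Unc5b. RNA had been measured on 1 array for each mouse, in 6 EAE mice given humanized anti-RGMa antibody, 5 EAE mice given an isotype control antibody (palivizumab) and 6 naïve mice. All were female C57BL/6 mice (C57BL/6J in the methods), given as 8 weeks old in the labels. In both EAE groups, mice immunized with a MOG peptide in complete Freund's adjuvant underwent dorsal laminectomy at Th8 after 3 weeks, were injected with TNF-α and IFN-γ into the cord, and were given pertussis toxin. The antibodies were injected intravenously at 10 mg/kg from 9 days post cytokine injection (DPI), and 4.5 mm of cord around the injection site was taken at 14 DPI. As the methods give 7 weeks of age at purchase, these intervals put EAE mice past 8 weeks at sampling. Whether naïve mice were of the same age at sampling is not stated. Naïve mice are labelled as untreated, so immunization, surgery, cytokines, toxin and antibody cannot be told apart in a comparison with them. All values below are log2 signals, in which 1 unit is a 2-fold difference of the scaled array intensity, and each difference is one between groups for the same probe set.

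Guidance molecules steer growing axons. Semaphorins signal through plexins, and the secreted class 3 semaphorins mostly need a neuropilin as co-receptor. Ephrins are bound to the cell surface and signal to Eph receptors on the neighbouring cell, Slits are secreted ligands of Robo receptors, and netrin-1 attracts or repels axons through Dcc and the Unc5 receptors. Many of these proteins persist in the adult cord, where several also act in blood vessels and immune cells, and Nogo, a myelin protein, inhibits axon regrowth through its receptor. RGMa, the target of the antibody, is itself a repulsive guidance molecule that acts through neogenin.

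The promoters of 2 members that moved in opposite directions are shown to let their sequence be set beside the signals that follow. Sema4d had a higher signal and Ntng1 a lower signal in EAE cord. Each window holds 250 bases before and 50 bases after a transcription start of RefSeq (GRCm38.p6), is printed 5′ to 3′ on the gene's minus strand, and has each CG dinucleotide in capitals. Sema4d has 3 annotated windows, of which the middle one by position is printed, at chr13:51748761-51749060. Ntng1 has 1 window, at chr3:110143423-110143722.
Sema4d: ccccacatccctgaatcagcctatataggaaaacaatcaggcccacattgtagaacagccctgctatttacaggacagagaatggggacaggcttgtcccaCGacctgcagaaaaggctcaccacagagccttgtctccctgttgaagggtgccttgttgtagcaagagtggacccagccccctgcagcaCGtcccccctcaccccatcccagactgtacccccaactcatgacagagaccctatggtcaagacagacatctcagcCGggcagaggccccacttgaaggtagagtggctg
Ntng1: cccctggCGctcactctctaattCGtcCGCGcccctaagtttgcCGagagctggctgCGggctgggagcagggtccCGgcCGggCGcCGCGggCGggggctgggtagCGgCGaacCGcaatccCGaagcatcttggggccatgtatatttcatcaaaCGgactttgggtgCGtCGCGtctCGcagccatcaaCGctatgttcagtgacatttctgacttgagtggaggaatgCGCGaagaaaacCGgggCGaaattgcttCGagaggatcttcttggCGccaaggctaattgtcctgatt
The printed window of Sema4d held 3 CG dinucleotides and that of Ntng1 held 28. Of the 71 members, 61 were matched in the promoter table, with 79 windows. Their windows held a median of 18 CG dinucleotides, against 7 over all 32851 windows of the table, and 100% of members' windows and 94.6% of all windows held at least 1. Averaged over the windows of each gene, the median was 12 CG (range 2.7 to 37) in the 10 matched members that were higher in isotype control than in naïve cord, 29 (range 7 to 56) in the 10 matched members that were lower, and 18 in the 41 matched members that were neither. Of the matched members that were higher, Sema4d was the lowest (2.7) and Nrp2 the highest (37), so the printed pair is not a typical one. The matched members come from 11 that were higher and 16 that were lower. The ranges overlapped, and these counts are a description of the letters in the windows.

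The arrays had the neuronal and glial signals of spinal cord, and EAE cord also carried signals of other cells. The mean of 10 neuron markers was 11.79 to 12.76 in anti-RGMa cords, 11.59 to 12.34 in isotype control cords and 13.10 to 13.15 in naïve cords, and 7 oligodendrocyte markers averaged 12.77 to 13.23 over all arrays. The mean of 12 macrophage and monocyte markers was 10.72 to 11.76 in anti-RGMa cords, 11.04 to 11.93 in isotype control cords and 7.26 to 7.90 in naïve cords. Isotype control replicates 3 and 4 stood apart, with fibroblast and meningeal marker means of 12.49 and 13.17 against 10.38 to 11.04 in the other 3, and isotype control replicates 3, 4 and 5 carried skeletal muscle markers (means of 9.37, 13.21 and 9.46, against 4.52 and 5.05 in the other 2 isotype control cords). Of the other groups, naïve replicate 4 had the highest muscle mean (8.10, against 4.01 to 6.16 in the other naïve cords). Anti-RGMa cords had muscle means of 5.05 to 7.38. Anti-RGMa replicates 1 and 6 had dorsal root ganglion marker means of 8.80 and 7.33, against 4.40 to 4.61 in the other 4. For these markers naïve replicate 5 was at 6.22, against 4.02 to 4.73 in the other naïve cords. Anti-RGMa replicate 6 also had the highest macrophage mean and the lowest neuron mean of its group.

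Guidance genes differed between EAE and naïve cords in both directions, as did genes over the whole array. In isotype control cords 27 of the 71 members (38%) passed an adjusted p under 0.05 (limma, Benjamini-Hochberg over all genes) with a fold change over 1.5 against naïve cords, where 32.1% of all 18194 genes did. Of these, 11 were higher (15.5%, against 17.2% of all genes) and 16 were lower (22.5%, against 14.9% of all genes). The median log2 fold change was -0.10 over the members and -0.04 over all genes. The signals of isotype control and naïve cords did not overlap for 10 higher and 15 lower members, which is 14.1% and 21.1% of them, against 18.3% and 20.4% of all genes. Those of anti-RGMa and naïve cords did not overlap for 7 higher (9.86%, against 13.9%) and 8 lower members (11.3%, against 13.8%). In anti-RGMa cords 13 members (18.3%) passed the same threshold against naïve cords, where 21.5% of all genes did, with 5 higher (7.04%, against 13.2%) and 8 lower (11.3%, against 8.3%). The comparisons share arrays, with isotype control and anti-RGMa cords set against the same 6 naïve cords. Centring each array on its median, which brought the median difference of all genes in isotype control against naïve to -0.18, gave 8 higher and 21 lower members there, beside 2673 higher and 3678 lower genes in all (3135 and 2709 without it). In anti-RGMa against naïve it gave 5 and 11 members, beside 2091 and 2235 genes (2400 and 1511 without it). Without the 3 isotype control cords with muscle signal, 10 members were higher and 18 lower, beside 2955 and 2797 genes in all, and 20 of the 27 were kept. Epha2, Epha8, Ephb4, Ephb6, Ntn1, Ntng2 and Unc5a were the 7 that were lost. In this bulk RNA, fewer cells of a type and less RNA per cell cannot be told apart.

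**Figure D1:**
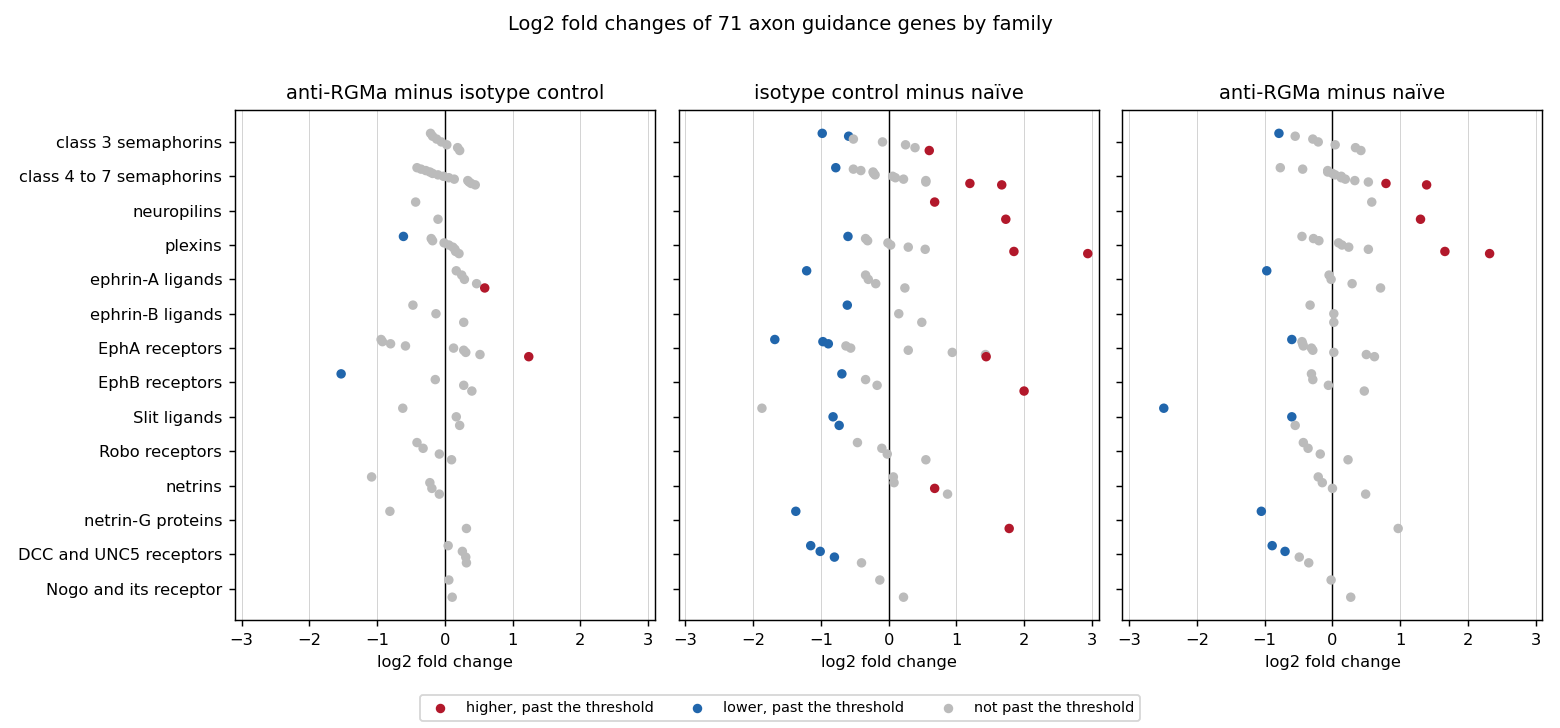
Each point is 1 of the 71 guidance genes, placed by family on the vertical axis and by its log2 fold change on the horizontal axis, for anti-RGMa minus isotype control, isotype control minus naïve and anti-RGMa minus naïve. Red and blue points are higher and lower past the threshold of the comparison. In isotype control minus naïve, both neuropilins lie to the right of 0 and all 4 Dcc and Unc5 receptors and all 3 Slits to the left.

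Of the 9 plexins, the receptors of semaphorins, 2 rose and 1 fell in isotype control against naïve cords. Plxnd1, the plexin through which Sema3e acts on blood vessels, had signals of 8.68 (lowest), 9.29 (median) and 10.39 (highest) in anti-RGMa cords, of 10.57, 9.89, 9.46, 9.91 and 10.14 in isotype control cords, and of 6.80, 7.00 and 7.40 (lowest, median, highest) in naïve cords. Every EAE cord lay above every naïve cord. The log2 fold change was 2.94 ± 0.25 (SE) in isotype control against naïve (7.66-fold, adjusted p = 1.76e-07) and 2.32 ± 0.24 in anti-RGMa against naïve (5-fold, adjusted p = 1.8e-06). Plxnb2, a receptor of class 4 semaphorins, had 10.29, 10.77 and 11.25 in anti-RGMa cords, 11.25, 10.91, 10.57, 11.00 and 10.94 in isotype control cords, and 8.78, 9.06 and 9.56 in naïve cords. It was 3.59-fold higher in isotype control than in naïve cords (log2 1.85 ± 0.18, adjusted p = 7.9e-07) and 3.17-fold higher in anti-RGMa than in naïve cords (log2 1.66 ± 0.17, adjusted p = 2.05e-06), again with no overlap. Plxna4, which transmits Sema3a signals together with a neuropilin, was the 1 plexin that fell (isotype control against naïve -0.60 ± 0.15, adjusted p = 0.00336), with a mean of 7.62 ± 0.27 (SD, n = 6) in anti-RGMa cords, 7.46 ± 0.32 (n = 5) in isotype control cords and 8.07 ± 0.16 (n = 6) in naïve cords. Its fold change was 1.52, and the call was lost without isotype control replicate 1 (-0.49), isotype control replicate 2 (-0.56), naïve replicate 1 (-0.57) or naïve replicate 6 (-0.57). The other 6 plexins had log2 fold changes of -0.34 to 0.54 in isotype control against naïve and did not pass the threshold. Plxnc1, the receptor of Sema7a, was the highest of these (0.54, adjusted p = 0.017), and 3 of its 6 probe sets were called higher in both EAE groups against naïve, the largest difference being 1.51 in isotype control and 1.40 in anti-RGMa cords. Its call was gained in 6 of 29 alternatives in isotype control against naïve and in 3 of 29 in anti-RGMa against naïve.

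Both neuropilins, co-receptors for class 3 semaphorins and for VEGF, were higher in EAE cord. Nrp1 had 10.33, 10.82 and 11.32 in anti-RGMa cords, 11.31, 11.08, 11.30, 11.44 and 11.13 in isotype control cords, and 9.36, 9.48 and 9.69 in naïve cords, so that neither EAE group overlapped with naïve. The log2 fold change was 1.73 ± 0.13 in isotype control against naïve (3.33-fold, adjusted p = 5.64e-08) and 1.30 ± 0.13 in anti-RGMa against naïve (2.47-fold, adjusted p = 9.66e-07), and 3 of its 4 probe sets were called higher in each. Nrp2 had 9.74, 9.89 and 10.17 in anti-RGMa cords, 10.31, 9.91, 9.80, 10.03 and 10.07 in isotype control cords, and 9.12, 9.37 and 9.50 in naïve cords. It was 1.61-fold higher in isotype control than in naïve cords (log2 0.68 ± 0.10, adjusted p = 4.35e-05). Against naïve, the anti-RGMa difference was 0.58 ± 0.10 (1.497-fold, just under the fold threshold, adjusted p = 0.000219), also without overlap. With arrays centred on their medians, Nrp2 in isotype control against naïve was 0.55 and missed the fold threshold.

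Of the 13 semaphorins of classes 4 to 7, which are mostly bound to the membrane, 2 that are known in immune cells rose and 1 fell. Sema4d (CD100), a ligand of plexin-B1 that is also carried by T cells, had 10.04, 10.06 and 11.22 in anti-RGMa cords, 10.95, 10.77, 10.04, 9.98 and 11.06 in isotype control cords, and 8.67, 8.89 and 9.04 in naïve cords. All EAE cords lay above all naïve cords. The log2 fold change was 1.67 ± 0.23 in isotype control against naïve (3.19-fold, adjusted p = 2.66e-05) and 1.39 ± 0.22 in anti-RGMa against naïve (2.63-fold, adjusted p = 0.000164). Sema4a, a co-stimulator of T cells, had 9.95, 10.34 and 11.24 in anti-RGMa cords, 11.20, 10.90, 10.46, 10.31 and 11.32 in isotype control cords, and 9.51, 9.65 and 9.74 in naïve cords. It was 2.3-fold higher in isotype control than in naïve cords (log2 1.20 ± 0.22, adjusted p = 0.000313) and 1.73-fold higher in anti-RGMa than in naïve cords (log2 0.79 ± 0.21, adjusted p = 0.00751). Of their probe sets, 2 of 3 for Sema4d and 2 of 2 for Sema4a were called higher in each comparison. Sema4f, a transmembrane semaphorin of neurons, went the other way, with 9.33, 9.64 and 9.97 in anti-RGMa cords, 8.96, 9.71, 9.49, 9.34 and 9.09 in isotype control cords, and 9.93, 10.11 and 10.22 in naïve cords. It fell by 0.78 ± 0.14 in isotype control against naïve (1.71-fold lower, adjusted p = 0.000278), and in anti-RGMa against naïve its difference was -0.44 ± 0.14 and under the fold threshold. The other 10 members of classes 4 to 7 did not pass in isotype control against naïve and had log2 fold changes of -0.52 to 0.55.

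**Figure D2:**
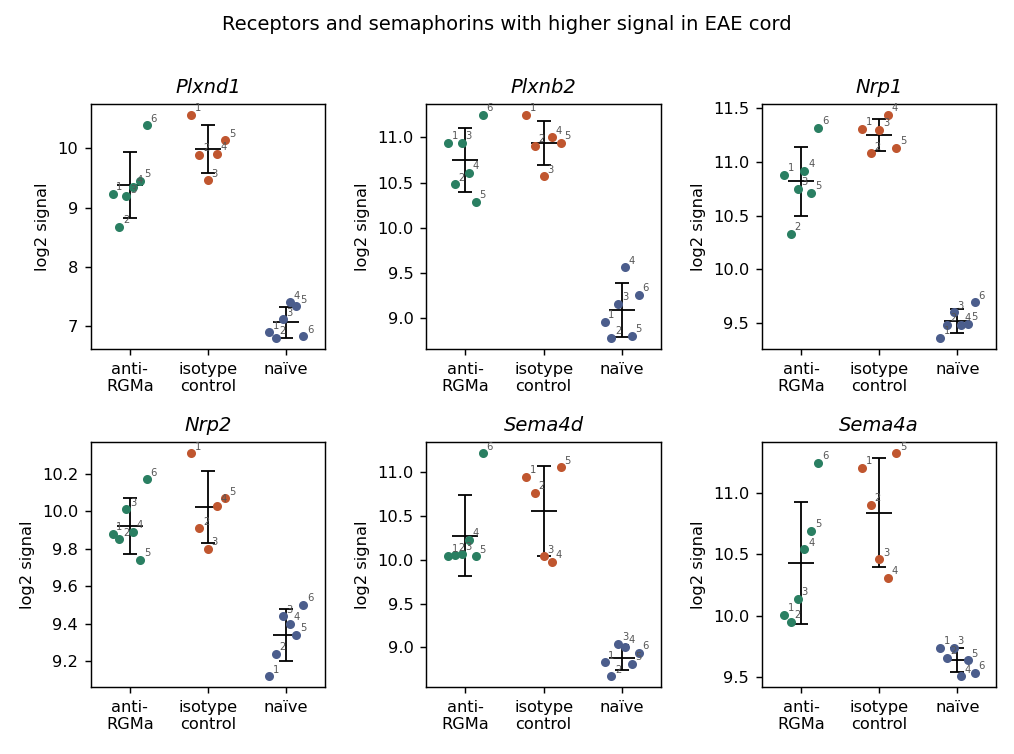
Log2 signal of Plxnd1, Plxnb2, Nrp1, Nrp2, Sema4d and Sema4a in each array (points, numbered by replicate) of the anti-RGMa, isotype control and naïve groups, with the group mean and SD in black. For all 6 genes the lowest EAE cord lies above the highest naïve cord, and anti-RGMa replicate 6 is the highest of its group in each.

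Of the 7 class 3 semaphorins, which are secreted, Sema3e and Sema3f fell and Sema3d rose in isotype control against naïve cords. Sema3e, the ligand of Plxnd1, had 7.02, 7.86 and 8.34 in anti-RGMa cords, 7.17, 7.48, 8.01, 7.71 and 7.57 in isotype control cords, and 8.20, 8.65 and 8.74 in naïve cords. All isotype control cords lay below all naïve cords, whereas anti-RGMa and naïve cords overlapped. It fell by 0.98 ± 0.20 in isotype control against naïve (1.97-fold lower, adjusted p = 0.00075) and by 0.79 ± 0.19 in anti-RGMa against naïve (1.72-fold lower, adjusted p = 0.0041), on 1 of its 4 probe sets. Averaging the 4 gave -0.63 in anti-RGMa against naïve (adjusted p = 0.163). Thus the signal of the ligand was lower and that of its receptor Plxnd1 was higher in both EAE groups. Sema3f, a ligand of neuropilin-2, averaged 7.79 ± 0.50 in anti-RGMa cords, 7.76 ± 0.29 in isotype control cords and 8.35 ± 0.23 in naïve cords, with overlapping signals (isotype control against naïve -0.59 ± 0.21, adjusted p = 0.0299). Its call was lost without isotype control replicate 1 (-0.54) or 2 (-0.50) and without naïve replicate 1 (-0.55) or 5 (-0.53), and the mean of its probe sets gave -0.12. Sema3d, a secreted semaphorin, averaged 8.69 ± 0.42 in anti-RGMa cords, 8.87 ± 0.33 in isotype control cords and 8.26 ± 0.26 in naïve cords, again with overlap (0.60 ± 0.20, adjusted p = 0.02). That call was lost without isotype control replicates 1, 2 or 3 (0.52, 0.58 and 0.58) or naïve replicates 4 or 6 (0.57 and 0.53), and the mean of its probe sets gave 0.19. The other 4 class 3 members had log2 fold changes of -0.52 to 0.39 there.

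The signals that rose were in cords with high macrophage and monocyte markers. In these cords 12 of 12 such markers passed higher in isotype control against naïve and in anti-RGMa against naïve. In each, 7 of 8 measured T cell markers passed, and 6 and 2 of 10 endothelial markers did. Also passing were 8 and 4 of 8 fibroblast and meningeal markers, and 4 and 2 of 8 pericyte and smooth muscle markers. Endothelial marker means were 8.55 to 9.04 in anti-RGMa cords, 8.95 to 9.42 in isotype control cords and 8.22 to 8.60 in naïve cords. Within the EAE groups, the cords with the highest macrophage means (isotype control replicates 1 and 5 with 11.93 and 11.82, and anti-RGMa replicate 6 with 11.76) were also the 3 with the highest Sema4d, Sema4a and Plxnd1 signals. Other genes that rose did not all follow this order. For Nrp1 the highest signal was in isotype control replicate 4 (11.44). For Plxnb2 that replicate (11.00) lay above isotype control replicate 5 (10.94). The part of these markers in the differences was not tested.

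Of the ephrin ligands, 1 of 5 ephrin-A and 1 of 3 ephrin-B members fell in isotype control against naïve cords and none rose, on the probe sets used. Efna3, an ephrin-A ligand, had 7.56, 8.11 and 8.52 in anti-RGMa cords, 7.48, 7.98, 8.20, 7.93 and 7.75 in isotype control cords, and 8.77, 9.14 and 9.33 in naïve cords, and no EAE cord reached the lowest naïve cord. It fell by 1.21 ± 0.16 in isotype control against naïve (2.32-fold lower, adjusted p = 1.57e-05) and by 0.97 ± 0.15 in anti-RGMa against naïve (1.95-fold lower, adjusted p = 0.000148), on 2 of 2 probe sets. Efnb3, a transmembrane ephrin of neurons and oligodendrocytes, averaged 11.03 ± 0.24 in anti-RGMa cords, 10.74 ± 0.24 in isotype control cords and 11.36 ± 0.15 in naïve cords. It fell by 0.61 ± 0.13 in isotype control against naïve (1.53-fold lower, adjusted p = 0.000884), with no overlap. This call was lost without isotype control replicate 1 (-0.54) or naïve replicate 6 (-0.56). The other 4 ephrin-A and 2 ephrin-B ligands did not pass, with log2 fold changes of -0.34 to 0.49. Of other probe sets, 1 of 2 for Efna2 (-1.21) and 1 of 2 for Efna5 (-1.26, a dim one) were called lower there. Both were also called lower in anti-RGMa against naïve (-0.78 and -1.20). For Efnb1, 1 of 3 was called higher in isotype control against naïve (0.78). With the mean of the probe sets, Efna2 and Efna5 passed in isotype control against naïve.

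Of the 9 EphA receptors 3 fell and 1 rose in isotype control against naïve cords. Epha5, a neuronal receptor of ephrin-A ligands, had 8.31, 8.62 and 8.91 in anti-RGMa cords, 8.08, 8.65, 8.53, 8.17 and 8.21 in isotype control cords, and 8.95, 9.23 and 9.40 in naïve cords. The naïve cords lay above all EAE cords. It fell by 0.89 ± 0.14 in isotype control against naïve (1.85-fold lower, adjusted p = 9.02e-05) and by 0.60 ± 0.14 in anti-RGMa against naïve (1.52-fold lower, adjusted p = 0.00223), on 4 of 4 probe sets in each. The second of these calls fell under the fold threshold (-0.54 to -0.57) without anti-RGMa replicates 4, 5 or 6 or naïve replicates 2 or 6. Epha10, a receptor that lacks kinase activity, averaged 8.60 ± 0.27 in anti-RGMa cords, 8.08 ± 0.43 in isotype control cords and 9.05 ± 0.17 in naïve cords (isotype control against naïve -0.97 ± 0.18, adjusted p = 0.000256). Epha8 was dimmer, with 4.83, 6.39 and 6.79 in anti-RGMa cords, 5.56, 5.27, 4.50, 5.95 and 3.31 in isotype control cords, and 5.51, 6.80 and 7.13 in naïve cords, and its groups overlapped. It fell by 1.68 ± 0.46 in isotype control against naïve (adjusted p = 0.0056). Epha2, known in epithelia and vessels, was the 1 EphA receptor that rose, with 4.95, 6.60 and 7.50 in anti-RGMa cords, 7.14, 7.22, 7.38, 7.81 and 7.72 in isotype control cords, and 3.86, 6.36 and 6.99 in naïve cords (isotype control against naïve 1.44 ± 0.52, adjusted p = 0.0297). Without isotype control replicates 4 or 5 or naïve replicates 3 or 5 its adjusted p was 0.051 to 0.0625, with log2 fold changes of 1.35, 1.38, 1.37 and 1.01. The other 5 EphA receptors had log2 fold changes of -0.63 to 1.43 there and did not pass. One of them, Epha4, was at -0.56 (adjusted p = 0.00822), just under the fold threshold. On 2 of its 5 probe sets it was called lower in isotype control (-0.68 and -0.98) and in anti-RGMa cords (-0.67 and -0.76) against naïve. Its call was gained in 9 of 29 alternatives in isotype control against naïve and in 1 of 29 in anti-RGMa against naïve.

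The 4 EphB receptors among the members, which do not include Ephb2, were divided. Ephb4, the ephrin-B2 receptor of veins, had 3.2, 4.41 and 6.80 in anti-RGMa cords, 6.17, 6.03, 5.89, 6.96 and 5.63 in isotype control cords, and 3.32, 3.60 and 6.83 in naïve cords. The isotype control cords were all at least 5.63, while naïve replicate 6 alone was as high in its group. The log2 fold change of isotype control against naïve was 2 ± 0.71 (adjusted p = 0.0266), and it missed the adjusted threshold without isotype control replicate 4 (1.79, adjusted p = 0.0651) or without naïve replicates 1, 3 or 5 (1.87, 1.84 and 1.87, adjusted p = 0.0525 to 0.0548). Such low signals carry background. Ephb6, a receptor without kinase activity, averaged 8.72 ± 0.48 in anti-RGMa cords, 8.32 ± 0.18 in isotype control cords and 9.01 ± 0.30 in naïve cords. It fell by 0.69 ± 0.21 in isotype control against naïve (1.61-fold lower, adjusted p = 0.0103), and by 0.58 and under the fold threshold without naïve replicate 6. Ephb1 and Ephb3 had log2 fold changes of -0.34 and -0.17.

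All 3 Slits had lower means in EAE cord, and 2 passed the threshold in isotype control against naïve. Slit2 had 9.30, 9.92 and 10.08 in anti-RGMa cords, 9.09, 9.83, 10.25, 9.96 and 9.01 in isotype control cords, and 10.32, 10.42 and 10.64 in naïve cords. It fell by 0.82 ± 0.20 in isotype control against naïve (1.76-fold lower, adjusted p = 0.00307, 3 of 3 probe sets). In anti-RGMa against naïve it fell by 0.60 ± 0.19 (1.52-fold lower, adjusted p = 0.0206, 2 of 3 probe sets), and this call was lost without anti-RGMa replicate 6 (-0.49, adjusted p = 0.0522) or naïve replicate 6 (-0.56). Slit1, another repellent ligand, averaged 8.14 ± 0.25 in anti-RGMa cords, 7.97 ± 0.46 in isotype control cords and 8.70 ± 0.17 in naïve cords. It fell by 0.73 ± 0.18 in isotype control against naïve (adjusted p = 0.00308) on the probe set used, while the mean of its 2 probe sets gave -0.12. Slit3 was dim and scattered, with 1.98, 3.30 and 6.28 in anti-RGMa cords, 1.79, 4.73, 6.47, 6.32 and 3.69 in isotype control cords, and 6.07, 6.49 and 6.85 in naïve cords. In anti-RGMa against naïve it fell by 2.49 ± 0.82 (adjusted p = 0.0223), and without anti-RGMa replicate 6 the difference was -2.09 with an adjusted p of 0.0575. None of the 4 Robo receptors, through which Slits act, passed against naïve, with log2 fold changes of -0.46 to 0.55 in isotype control cords and -0.43 to 0.23 in anti-RGMa cords. Of other probe sets, 1 of 2 for Robo3 was called higher in isotype control against naïve (1.95), and 1 of 3 for Robo1 was called lower in isotype control (-1.16) and in anti-RGMa cords (-0.73) against naïve. With the mean of the probe sets, Robo1 and Robo3 passed in isotype control against naïve.

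Of the 4 netrin-1 receptors named by the rule (Dcc, Unc5a, Unc5c and Unc5d), 3 fell in isotype control against naïve cords, whereas their ligand Ntn1 rose. Dcc, the receptor through which netrin-1 attracts axons, had 7.69, 8.20 and 8.35 in anti-RGMa cords, 7.46, 8.35, 8.17, 7.53 and 7.56 in isotype control cords, and 8.55, 8.84 and 9.01 in naïve cords. The EAE cords all lay below the naïve cords. It fell by 1.01 ± 0.17 in isotype control against naïve (2.01-fold lower, adjusted p = 0.000118) and by 0.70 ± 0.16 in anti-RGMa against naïve (1.62-fold lower, adjusted p = 0.00248), on 2 of 3 probe sets. Unc5d, a repulsive netrin receptor, had 7.12, 8.08 and 8.33 in anti-RGMa cords, 7.16, 8.06, 8.07, 7.79 and 7.30 in isotype control cords, and 8.58, 8.84 and 9.01 in naïve cords, also without overlap. It fell by 1.15 ± 0.21 in isotype control against naïve (2.22-fold lower, adjusted p = 0.000259) and by 0.89 ± 0.20 in anti-RGMa against naïve (1.85-fold lower, adjusted p = 0.00224). Unc5a, of the same family, fell by 0.80 ± 0.19 in isotype control against naïve (adjusted p = 0.00233), with means of 7.71 ± 0.32 in anti-RGMa cords, 7.40 ± 0.17 in isotype control cords and 8.20 ± 0.41 in naïve cords. Unc5c, the remaining receptor, differed by -0.40 ± 0.09 in isotype control against naïve, under the fold threshold, with an adjusted p of 0.00135. Its other probe set was called lower in isotype control (-0.79) and in anti-RGMa cords (-0.78) against naïve. With the mean of its 2 probe sets, Unc5c passed in isotype control against naïve.

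Ntn1 (netrin-1) had 8.89, 9.44 and 9.80 in anti-RGMa cords, 9.24, 9.47, 10.04, 10.08 and 9.16 in isotype control cords, and 8.69, 8.89 and 9.19 in naïve cords. It was 1.6-fold higher in isotype control than in naïve cords (log2 0.68 ± 0.19, adjusted p = 0.00692), with overlapping signals. This rise missed the fold threshold without isotype control replicate 3 (0.57) or 4 (0.56), was 0.44 without the 3 isotype control cords with muscle signal (adjusted p = 0.11), and was 0.28 as the mean of its 2 probe sets (adjusted p = 0.198). Isotype control replicates 3 and 4, the cords with the highest fibroblast and meningeal means, had its 2 highest signals. The other 3 netrins had log2 fold changes of 0.07 to 0.87 in isotype control against naïve and did not pass.

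The netrin-G proteins, which are anchored in the membrane of axons and bind synaptic partners rather than Dcc, differed in direction. Ntng1 had 8.16, 8.94 and 9.01 in anti-RGMa cords, 7.78, 9.13, 8.92, 8.35 and 8.19 in isotype control cords, and 9.64, 9.89 and 9.94 in naïve cords, and all EAE cords lay below all naïve cords. It fell by 1.37 ± 0.21 in isotype control against naïve (2.58-fold lower, adjusted p = 6.4e-05, 3 of 4 probe sets) and by 1.05 ± 0.20 in anti-RGMa against naïve (2.07-fold lower, adjusted p = 0.000705, 2 of 4 probe sets). Ntng2 had 4.43, 6.93 and 7.34 in anti-RGMa cords, 7.31, 7.25, 6.46, 7.68 and 7.18 in isotype control cords, and 4.06, 5.46 and 6.62 in naïve cords. It rose by 1.78 ± 0.59 in isotype control against naïve (adjusted p = 0.0177), on 1 of 2 probe sets, and averaging both gave 0.88 (adjusted p = 0.074).

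**Figure D3:**
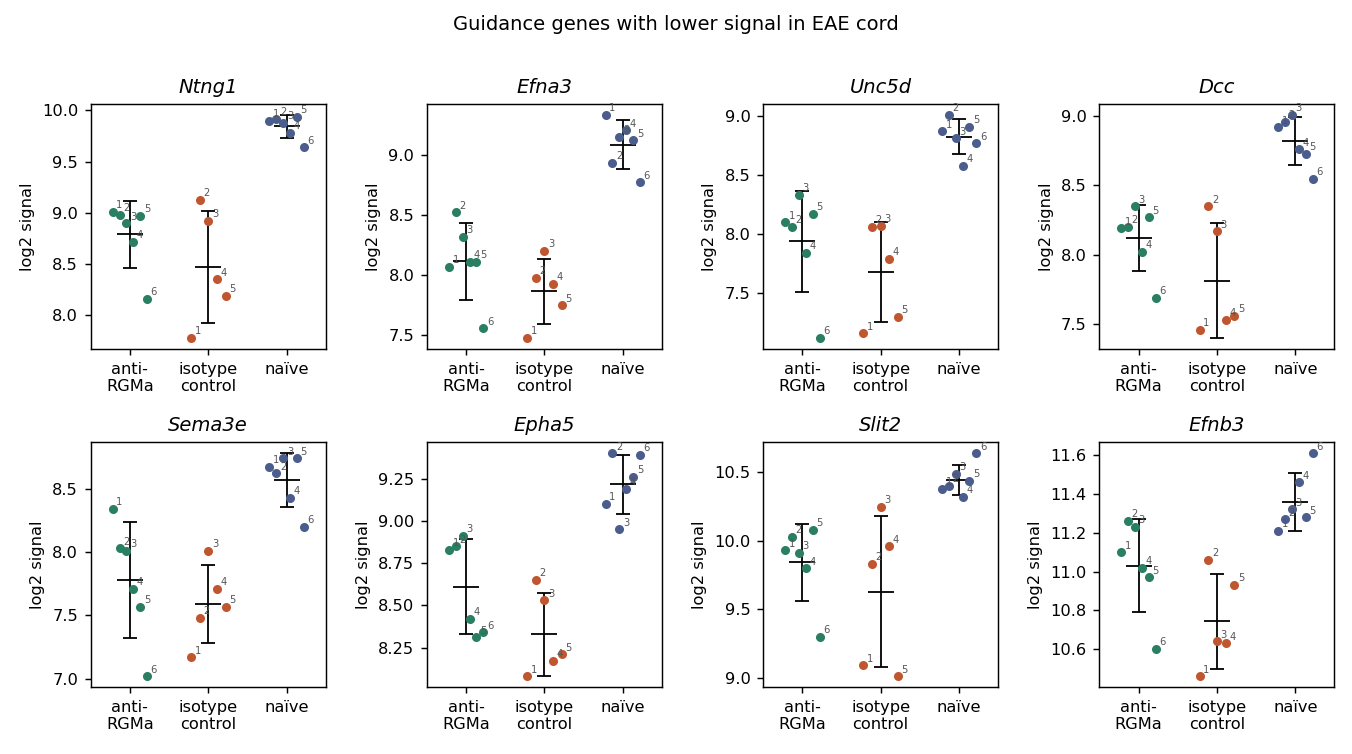
Log2 signal of Ntng1, Efna3, Unc5d, Dcc, Sema3e, Epha5, Slit2 and Efnb3 in each array (points, numbered by replicate) of the anti-RGMa, isotype control and naïve groups, with the group mean and SD in black. For all 8 genes the isotype control cords lie below the naïve cords, and anti-RGMa replicate 6 is the lowest of its group in 7 of them.

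The signals that fell were in cords with lower neuron markers. Of 10 neuron markers, 10 passed lower in isotype control against naïve and 5 in anti-RGMa against naïve, and of 6 motor neuron markers 5 and 3 did. Anti-RGMa replicate 6 and isotype control replicates 1 and 5, with the lowest neuron means of the EAE cords (11.79, 11.59 and 11.68), had the 3 lowest signals of Ntng1, Unc5d and Slit2. Other genes that fell did not all follow this order. Isotype control replicates 1, 4 and 5 had the 3 lowest signals of Dcc (7.46, 7.53 and 7.56) and Epha5 (8.08, 8.17 and 8.21). The part of the neuron markers in these differences was not tested. Rtn4 (Nogo) averaged 14.18 ± 0.11 in anti-RGMa cords, 14.07 ± 0.07 in isotype control cords and 14.20 ± 0.04 in naïve cords, a difference of -0.13 ± 0.06 in isotype control against naïve that did not pass (adjusted p = 0.101), although 1 of its 5 probe sets was called lower there. Its receptor Rtn4r averaged 7.55 ± 0.33 in anti-RGMa cords, 7.50 ± 0.32 in isotype control cords and 7.28 ± 0.29 in naïve cords (isotype control against naïve 0.22 ± 0.19, adjusted p = 0.36).

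**Figure D4:**
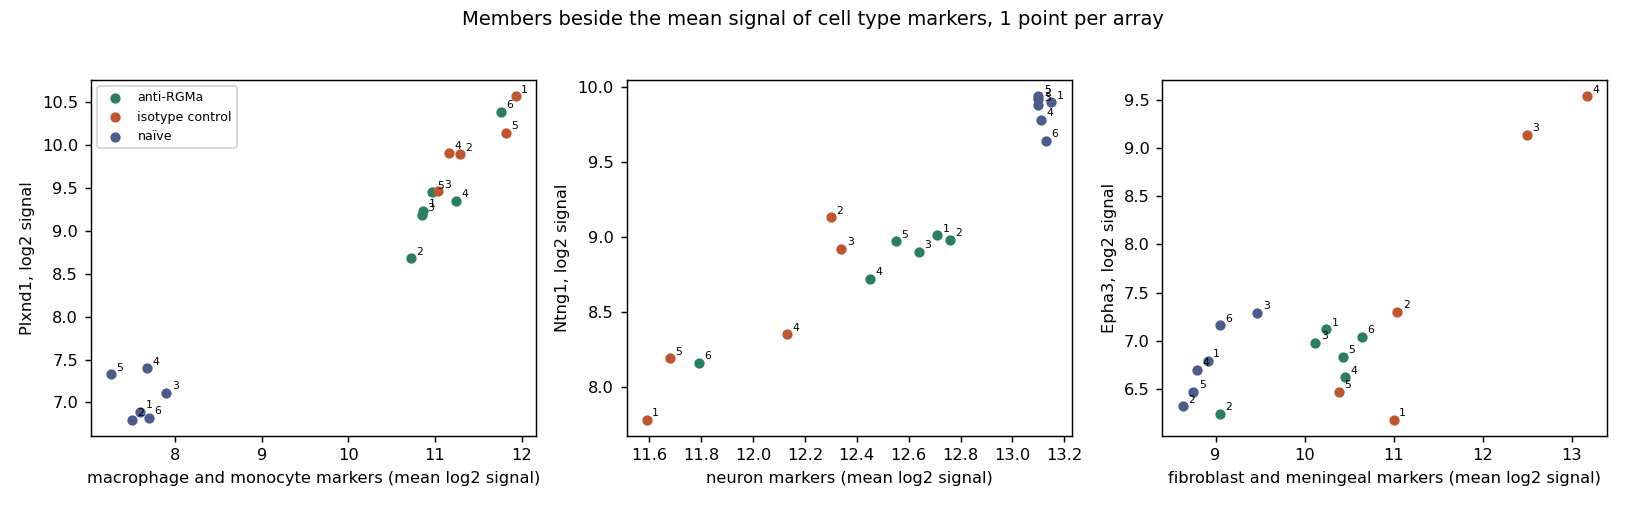
Each point is 1 array, numbered by replicate, with the mean log2 signal of a marker list on the horizontal axis and the log2 signal of a guidance gene on the vertical axis. Plxnd1 is set beside macrophage and monocyte markers, Ntng1 beside neuron markers and Epha3 beside fibroblast and meningeal markers, and in the last panel isotype control replicates 3 and 4 stand apart from all other arrays at 9.14 and 9.54.

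The anti-RGMa antibody was then compared with the isotype control antibody within EAE. Here 4 of the 71 members (5.63%) passed the threshold that the study used for this comparison, a fold change over 1.5 at an unadjusted p under 0.05, as did 3.94% of all genes. Epha8 and Efna2 were higher (2.82% of members, against 1.22% of all genes), and Plxnd1 and Ephb4 were lower (2.82%, against 2.72%). After Benjamini-Hochberg adjustment over all genes with limma, 0 members and 1 of 18194 genes (0.0055%) passed 0.05. Without regard to fold change, 14 members (19.7%) had an unadjusted p under 0.05, against 15.8% of all genes, with 9 higher (12.7%, against 9.01%) and 5 lower (7.04%, against 6.77%). The groups overlapped in all 71 members, and did not overlap in 0.242% (higher) and 0.566% (lower) of all genes. The median log2 fold change was 0.05 over the members and 0.01 over all genes. Without the 3 isotype control cords with muscle signal 3 members were higher and 2 lower, with 2 of the 4 shared, beside 517 and 308 of all genes. Without anti-RGMa replicates 1 and 6 there were 2 and 1, with 2 shared, beside 563 and 639 of all genes. With all arrays, 222 genes were higher and 494 lower.

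Plxnd1 fell by 0.61 ± 0.25 in anti-RGMa against isotype control cords (1.53-fold lower, adjusted p = 0.282). Its values given above ran from 8.68 to 10.39 in anti-RGMa cords and from 9.46 to 10.57 in isotype control cords, and anti-RGMa replicate 6 (10.39) was the 1 anti-RGMa cord above 9.46. Without that array the difference was -0.81 with an adjusted p of 0.0277. The call at the study's threshold was lost without anti-RGMa replicates 1, 2 or 3 (-0.58, -0.47 and -0.57) or isotype control replicates 1 or 5 (-0.47 and -0.58). Ephb4 had 3 anti-RGMa cords at 3.2 to 3.52 and 3 at 5.29 to 6.80, against 5.63 to 6.96 in isotype control cords (-1.53 ± 0.71, adjusted p = 0.315). It missed the study's threshold when any 1 of anti-RGMa replicates 2, 5 or 6, of the 5 isotype control replicates or of naïve replicates 1 to 5 was left out (-1.25 to -1.65).

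Epha8, of the 2 members called higher, rose by 1.24 ± 0.46 (2.36-fold, adjusted p = 0.246), and 5 of 6 anti-RGMa cords lay above 4 of 5 isotype control cords. Without isotype control replicate 5, its lowest signal (3.31), the difference was 0.84 and no longer passed. Efna2, an ephrin-A ligand, had 7.53, 7.82 and 8.50 in anti-RGMa cords, 6.61, 7.29, 7.17, 7.90 and 7.59 in isotype control cords, and 7.00, 7.72 and 8.04 in naïve cords (anti-RGMa against isotype control 0.59 ± 0.24, 1.5-fold, adjusted p = 0.282). Its call was lost without anti-RGMa replicates 1 or 6 (0.47 and 0.57) or isotype control replicates 1, 2 or 3 (0.41, 0.58 and 0.55). The other probe set of Efna2 was called lower in both EAE groups against naïve, unlike the one used. None of these 4 calls held in every one of the 29 alternatives run.

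**Figure D5:**
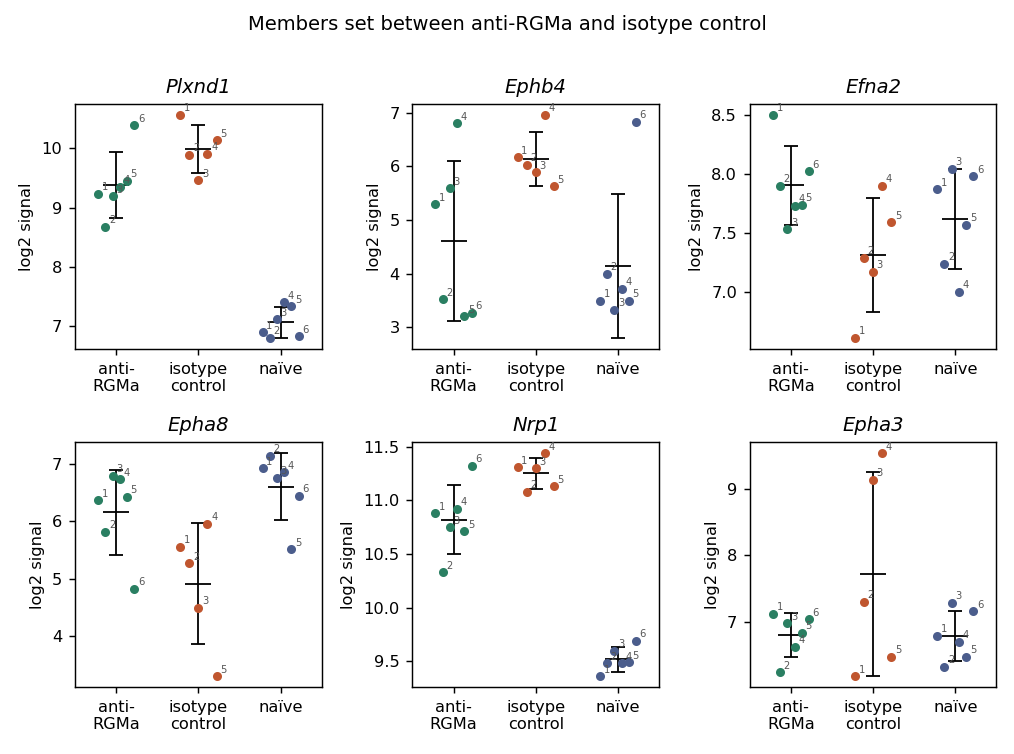
Log2 signal of Plxnd1, Ephb4, Efna2, Epha8, Nrp1 and Epha3 in each array (points, numbered by replicate) of the anti-RGMa, isotype control and naïve groups, with the group mean and SD in black. The anti-RGMa and isotype control points overlap for all 6 genes.

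Of the members that were not called, 6 had the smallest p values. Nrp1 had the smallest, with -0.43 ± 0.13 in anti-RGMa against isotype control cords (adjusted p = 0.223), and 5 of the 6 anti-RGMa cords lay below the lowest isotype control cord (11.08). Without anti-RGMa replicate 6, the remaining cord, the difference was -0.53 (adjusted p = 0.0211), and without both cords with dorsal root ganglion signal it was -0.57 (adjusted p = 0.0427). Sema5b, a transmembrane semaphorin, averaged 6.96 ± 0.23 in anti-RGMa cords and 6.51 ± 0.29 in isotype control cords (0.45 ± 0.15), and Epha10 differed by 0.52 ± 0.18. Sema6d, a ligand of plexin-A1, averaged 12.36 ± 0.28 in anti-RGMa cords and 12.00 ± 0.10 in isotype control cords (0.36 ± 0.13), with 0.17 for the mean of its probe sets. Ephb1 averaged 10.21 ± 0.18 in anti-RGMa cords and 9.92 ± 0.20 in isotype control cords (0.28 ± 0.11), and the difference was 0.09 without the 3 isotype control cords with muscle signal. Epha7 averaged 7.10 ± 0.39 in anti-RGMa cords and 7.68 ± 0.43 in isotype control cords (-0.58 ± 0.20), and its highest isotype control signals were those of replicates 3 and 4 (8.04 and 8.12). On 2 of its 4 probe sets Epha7 was called lower in both EAE groups against naïve, unlike on the one used, and in anti-RGMa against isotype control the mean of the 4 gave -0.18 (adjusted p = 0.615). The adjusted p of these 5 genes was 0.223 to 0.279. Leaving out anti-RGMa replicate 6 brought 5 of the 71 members (Nrp1, Plxnd1, Sema5b, Epha8 and Epha10) under an adjusted p of 0.05. It did the same for 1503 of all 18194 genes, so the shift was one of the whole array. Leaving out any other single array brought 0 members and at most 2 genes under it. Leaving out both cords with dorsal root ganglion signal brought 1 member and 213 genes.

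By family, all 5 ephrin-A ligands (0.17 to 0.59), all 4 Dcc and Unc5 receptors (0.05 to 0.32) and both Nogo members (0.06 and 0.11) had log2 fold changes above 0 in anti-RGMa against isotype control cords, and all 4 netrins (-1.08 to -0.08) and both neuropilins (-0.43 and -0.10) below 0 on the probe sets used. With the mean of the probe sets of each gene, Efna3 (-0.11) and Dcc (-0.16) lay below 0 and Ntn1 and Ntn4 (0.18 each) above it, and with quantile normalization Rtn4 was at -0.01. Beyond Efna2, none of these passed. The remaining families had members on both sides of 0. In this comparison 2 of 10 neuron and 2 of 6 motor neuron markers were higher at the same threshold. Lower were 2 of 10 endothelial, 3 of 8 pericyte and smooth muscle, 3 of 12 macrophage and monocyte, 1 of 8 T cell, 7 of 8 fibroblast and meningeal, 1 of 4 Schwann cell and 3 of 10 skeletal muscle markers. The part of these markers in the values of Plxnd1, Ephb4, Nrp1 and the other members was not tested.

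Epha3 and Efnb2, named after their values were seen, were high in the cords with fibroblast and meningeal signal. Epha3, a receptor of ephrin-A5, had 6.24, 6.90 and 7.12 in anti-RGMa cords, 6.18, 7.30, 9.14, 9.54 and 6.47 in isotype control cords, and 6.32, 6.74 and 7.29 in naïve cords. Isotype control replicates 3 and 4 were above every other array of the 17, of which the highest was at 7.30, and no comparison of this gene passed on the probe set used (anti-RGMa against isotype control -0.92 ± 0.51, adjusted p = 0.379). The difference was -0.57 without isotype control replicate 3, -0.47 without replicate 4 and 0.06 without the 3 cords with muscle signal. It passed the threshold without isotype control replicate 1 (-1.31, adjusted p = 0.364) or 5 (-1.23, adjusted p = 0.37), and without replicate 1 isotype control against naïve also passed (1.33, adjusted p = 0.0309). Of its 4 probe sets, 1 was called lower in anti-RGMa against isotype control and 1 higher in isotype control against naïve. Efnb2, the ligand of Ephb4, had 7.30, 7.91 and 8.88 in anti-RGMa cords, 8.46, 8.56, 9.07, 9.46 and 6.87 in isotype control cords, and 7.75, 8.00 and 8.22 in naïve cords (anti-RGMa against isotype control -0.47 ± 0.36, adjusted p = 0.535). Without isotype control replicate 5, the lowest cord of its group, Efnb2 passed the threshold in anti-RGMa against isotype control (-0.87, adjusted p = 0.24) and in isotype control against naïve (0.89, adjusted p = 0.0095). The part of these cords' fibroblast signal in the values was not tested.

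Other genes of the pathway were taken from a list of 63, of which 60 were measured. In isotype control against naïve cords 5 of the 60 were higher and 19 lower, beside 17.2% and 14.9% of all genes. Their median log2 fold change was -0.15, against -0.04 over all genes. The largest changes were those of Fes, a tyrosine kinase of myeloid cells that acts downstream of semaphorins (2.67), Mical1, an oxidoreductase that disassembles actin downstream of plexins (1.73), Chn1, a Rac regulator downstream of Eph receptors (-2), and Lrrc4c, the synaptic partner of netrin-G1 (-1.57). Lingo1 and Omg, a co-receptor and a ligand of the Nogo receptor, fell by 1.24 and 1.06. In anti-RGMa against naïve cords 5 of the 60 were higher and 7 lower, beside 13.2% and 8.3% of all genes. Fes was at 2.27, Mical1 at 1.37, Chn1 at -1.52 and Lrrc4c at -1.25 there. In anti-RGMa against isotype control cords 0 of 60 passed, beside 3.94% of all genes, with differences of -0.40 to 0.62. Rgma, which encodes the antibody's target, differed by 0.06 between anti-RGMa and isotype control and by 0.32 between isotype control and naïve, and its receptor Neo1 (neogenin) by -0.01 and -0.06, and none of these passed.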

How the data were processed

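Spinal cord RNA of 17 mice was measured on Affymetrix Mouse Genome arrays. The authors computed the deposited signal intensity of each probe set with MAS5 and global scaling, and each array had the same trimmed mean (500). In the submitters' processing notes the tools are affy and MAS5; a version of affy is not given in the sources used here. Of 45101 probe sets, the platform annotation gave 1 gene for 34958, several for 932 and no gene for 9211. The probe set with the highest mean log2 signal stood for each of 18194 genes. This choice, the scaling and the lack of detection calls can change the numbers, and the number of arrays limits their precision.

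The log2 intensities were fitted with limma 3.58.1 in R 4.3.3, in 1 fit over the 3 groups with no offset, filter or block, and p-values were adjusted by Benjamini-Hochberg over all genes. The methods name limma. Anti-RGMa was compared with isotype control at the study's threshold (unadjusted p under 0.05, fold change over 1.5), and both with naïve at an adjusted p under 0.05 and the same fold change. Of the 71 members, 63 had a mean log2 signal of at least 6, and 8 were dimmer. Counts of probe sets per gene come from a fit of all probe sets with 1 gene. The fit was tested on simulated data. P-values set each group difference against the spread between single mice, pooled over the 3 groups and moderated across genes by limma. The rule for the members uses symbols alone, but these gene families and the lists were chosen with earlier results of these data known. Rtn4, Rtn4r, Dcc, Ntn1, Nrp1 and Nrp2 were always named, as were, between the antibody groups, the members called and the 6 with the next smallest p, and, against naïve, up to 4 rises and 4 falls per family among those called. Other members were named after their values were seen. Samples with the same replicate number did not deviate together (correlations of -0.06 to 0.07). Alternatives covered scaling, an offset of 32, a filter on a mean log2 signal of 6, the probe set, the variance model, array weights, the arrays in the fit, a replicate block, a muscle covariate and each array left out. Plots were made in Python 3.11.15 with matplotlib 3.10.9.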

Additional observations from a re-analysis of the deposited data

Results flagged for a closer look

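Within groups, 5 members had 1 array far from the others by Dixon's test, of 111 tests over 37 genes, where chance gives about 1 in 20. In anti-RGMa cords, Sema4d was at 11.22 in replicate 6 against 10.04 to 10.23 in the others, Ntng1 at 8.16 in replicate 6 against 8.72 to 9.01, and Slit2 at 9.30 in replicate 6 against 9.80 to 10.08. These 3 values are from the array with the highest macrophage and the lowest neuron marker mean of its group. Ephb1 was at 10.57 in anti-RGMa replicate 2, against 10.05 to 10.17 in the others. Ephb4 was at 6.83 in naïve replicate 6, against 3.32 to 3.99 in the others.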

How the results depend on the processing

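Under the 29 alternatives, 14 of the 27 calls of isotype control against naïve and 9 of the 13 of anti-RGMa against naïve held throughout. The first were Plxnd1, Plxnb2, Nrp1, Sema4d and Sema4a (higher) and Ntng1, Efna3, Unc5d, Dcc, Sema3e, Epha10, Epha5, Slit2 and Sema4f (lower), and the second were the same 5 that were higher and Ntng1, Efna3, Unc5d and Dcc. No named value changed direction past a threshold. Against naïve, the counts under settings other than left-out arrays were 8 to 14 higher and 14 to 21 lower for isotype control, and 5 to 7 higher and 7 to 11 lower for anti-RGMa. Over all genes they were 2673 to 3228 higher and 2364 to 3678 lower for isotype control. For anti-RGMa they were 2091 to 2411 and 1094 to 2235.

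Between anti-RGMa and isotype control, the 2 higher members became 1 with an offset of 32, a filter on dim genes, the mean of the probe sets or the replicate block. The 2 lower members became 0 with median-centred arrays, 1 with quantile normalization, the dim filter, array weights, the muscle covariate or without the 2 anti-RGMa arrays with dorsal root ganglion signal (a setting chosen after seeing the data), and 4 with the replicate block. Over all genes, these settings gave 81 (offset of 32) to 563 higher and 308 to 639 lower genes, against 222 and 494 in the main fit. Quantile normalization gave 9 higher and 19 lower members in isotype control against naïve, beside 2897 and 3079 genes in all. The filter left 63 members, so Ephb4 and Epha8 were not tested under it. Otherwise the cause was not tested.

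Leaving out 1 array at a time gave 1 to 2 higher and 1 to 3 lower members between anti-RGMa and isotype control, 9 to 13 and 13 to 20 between isotype control and naïve, and 5 to 8 and 6 to 9 between anti-RGMa and naïve. Over all genes, the same 3 comparisons gave 180 to 537 higher and 349 to 685 lower, 2996 to 3189 and 2454 to 2912, and 2153 to 2510 and 1059 to 1732. With the replicate number as a block, 14 members were higher and 16 lower in isotype control against naïve, beside 3228 and 2887 genes in all. In anti-RGMa against naïve 5 and 8 members were, beside 2411 and 1508 genes. The numbers pair no mice, since 0 of the 16 same-number correlations was over 0.1. Members with a mean log2 signal under 6, such as Ephb4, Epha8 and Slit3, are limited by background.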
